A study of Homo sapiens with 12 samples.

Results

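The MYC family and its MAX partners were followed across naive and primed human embryonic stem cells. The genes were chosen by gene symbol from a list of 10 names, with earlier results of these libraries known, so their levels and tests describe these libraries and are not independent evidence. Of the 10 names 9 stood in the tables (MYC, MYCN, MYCL1, MAX, MXD1, MXD3, MXD4, MXI1 and MNT), of 23613 gene symbols in all. MYCL1 is the older symbol of MYCL, and the current symbol was the name without an entry. MXD1 stayed under the filter of 1 FPKM in at least 3 libraries, so 8 of the 9 genes were tested, among 14428 tested genes. FPKM is the number of sequenced fragments scaled to transcript length and to the mapped fragments of the library.

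The study compared the naive and primed states in H9 and RUES2, both established human embryonic stem cell lines, by sequencing of poly(A) RNA. There were 4 groups of 3 biological replicates: naive RUES2 (passages 24 to 26), primed RUES2 (passages 30 to 33), naive H9 (passages 27 to 31) and primed H9 (passages 31 to 35). The naive medium held PD0325901 (1 µM), which inhibits MEK, CHIR99021 (3 µM), which inhibits GSK3, and LIF (20 ng/mL), with 5 mM glucose and 18 µg/mL insulin. Primed cells grew on mitomycin-treated mouse embryonic fibroblasts with 4 ng/mL bFGF. The labels name no feeder for the naive medium, and they name no mTOR inhibitor although the title of the series speaks of its transient inhibition. Colonies were picked by hand, and each library is the RNA of a mixture of cells, so a change in the number of expressing cells and a change in RNA per cell cannot be told apart.

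MYC, MYCN and MYCL are basic helix-loop-helix leucine zipper proteins that bind E-box DNA as heterodimers with MAX and activate genes of growth, ribosome assembly and metabolism. MXD1, MXD3, MXD4, MXI1 and MNT also dimerise with MAX, bind the same sites and recruit SIN3-histone deacetylase complexes, which repress transcription. In mouse embryonic stem cells MYC and MYCN support self-renewal. GSK3 phosphorylates MYC protein, which marks it for degradation, a step that mRNA levels do not report.

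Between 12681 and 13592 genes reached 1 FPKM in a library. The number of reads per library is unknown, and the relative depth read from the authors' confidence bounds spanned 0.652 to 1.54 of its average. The pluripotency markers POU5F1 (458 to 587 FPKM in naive RUES2, 666 to 880 FPKM in primed RUES2, 417 to 451 FPKM in naive H9 and 790 to 983 FPKM in primed H9) and SOX2 were present in every library. The summed level of 11 naive markers was 42.3 to 110 FPKM in naive RUES2, against 12.6 to 22.02 FPKM in primed RUES2, and 32.0 to 49.2 FPKM in naive H9, against 5.57 to 14.97 FPKM in primed H9. Among them DNMT3L had 25.3 to 74.7 FPKM in naive RUES2, against 0.308 to 1.199 FPKM in primed RUES2, and 9.43 to 16.7 FPKM in naive H9, against 0.0953 to 0.888 FPKM in primed H9, KHDC3L had 7.27 to 12.2 FPKM in naive H9 and at most 0.302 FPKM in every other group, and KLF17 and ARGFX stayed below 1 FPKM in every library. Not every naive marker was higher in the naive state. TFCP2L1 had 0.140 to 0.169 FPKM in naive H9, against 0.224 to 0.690 FPKM in primed H9, and its RUES2 states overlapped. The states of ALPPL2 overlapped in RUES2 (0.775 to 1.87 FPKM naive, 0.978 to 1.60 FPKM primed), and those of DPPA5 in both lines. The summed level of 8 primed markers was 390 to 456 FPKM in naive RUES2, against 1508 to 1710 FPKM in primed RUES2, and 509 to 553 FPKM in naive H9, against 1476 to 1627 FPKM in primed H9. The summed level of 8 mesendoderm markers was 127 to 206 FPKM in naive RUES2, against 15.0 to 39.7 FPKM in primed RUES2, and 156 to 197 FPKM in naive H9, against 16.98 to 51.95 FPKM in primed H9. The summed level of 8 neural markers was 323 to 366 FPKM in naive RUES2, against 101 to 177 FPKM in primed RUES2, and 300 to 319 FPKM in naive H9, against 139 to 177 FPKM in primed H9, with SOX1 below 1 FPKM in each group. A check of line identity covered the 12 libraries. Those labelled RUES2 split evenly, with 3 unlike the others of that label, and those labelled H9 all matched. Which side of the split fits the label was not settled. The libraries labelled RUES2 thus need not be of 1 line, and state and line cannot be told apart with certainty among them. No library of that split is compared within H9, but the fit takes its spread from all 12 libraries, those labelled RUES2 included. Each comparison that uses RUES2 libraries is given as one of libraries labelled RUES2.

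The state difference was tested in each line with limma on log2(FPKM + 1), with Benjamini-Hochberg adjustment over all 14428 tested genes and a call at an adjusted p under 0.05. In the libraries labelled RUES2, 3 of the 8 tested members rose in the naive state (MYC, MAX and MXD3) and 1 fell (MYCN), where 23.1% of all tested genes rose and 23.6% fell. In H9 none of the 8 rose and 1 fell (MYC), where 20.4% of all tested genes rose and 23.9% fell. For the difference between the state effects in RUES2 and H9, MYC alone was called higher and no member lower, against 3.77% and 1.93% of all tested genes. In the naive state 4 of the 8 members were higher in libraries labelled RUES2 than in H9 (MYC, MAX, MXI1 and MNT) and none was lower, against 11.2% and 4.69% of all tested genes. In the primed state no member differed between RUES2 and H9 past the threshold, where 1.34% of all tested genes were higher and 0.471% lower in RUES2. At an unadjusted p under 0.05, limma's test counted 0 members higher and 1 lower there (MXD4), and 0 higher and 2 lower in naive than primed H9 (MYC and MXD4). At the same threshold it counted 4 higher (MYC, MAX, MXD4 and MNT) and 1 lower (MYCN) for the difference between the state effects, and 4 higher and 1 lower (MYCN) in naive RUES2 than in naive H9. The share of all tested genes at that unadjusted threshold was not counted, so these counts cannot be set against a general rate.

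**Figure D1:**
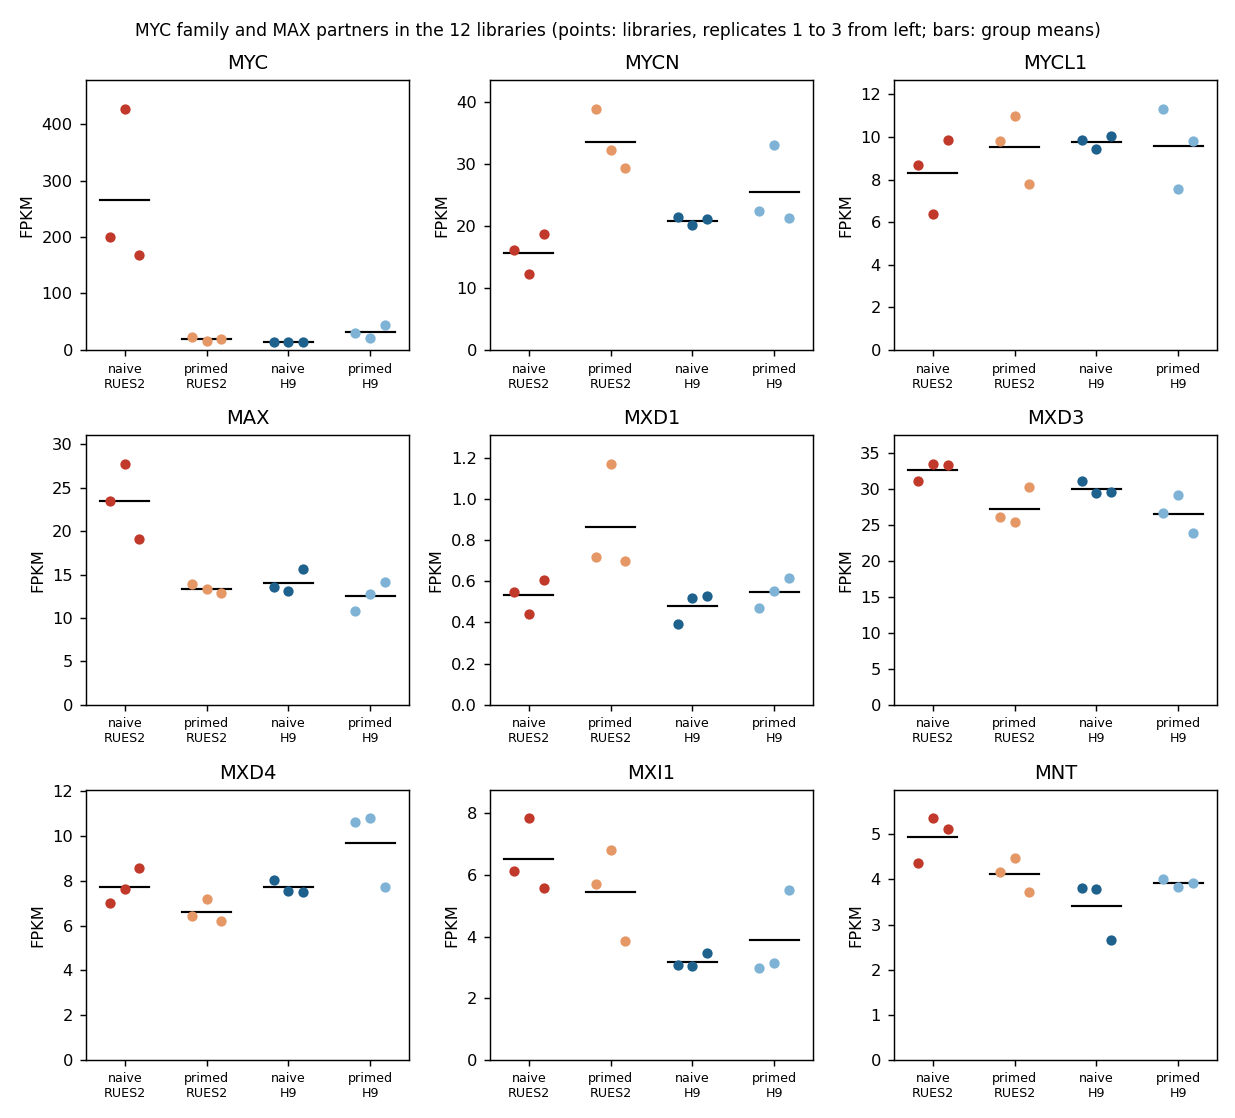
FPKM of the 9 genes in each of the 12 libraries, with 1 panel per gene on its own linear axis that starts at 0. Points are libraries, with replicates 1 to 3 from left to right, and bars are group means of 3 libraries. MYC in the 3 naive libraries labelled RUES2 sits between 169 and 427 FPKM, above the other 9 libraries, which lie between 14.3 and 44.1 FPKM.

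MYC (hg19 chr8:128748315-128753680) was the member whose level varied most. It had 199, 427 and 169 FPKM in the naive libraries labelled RUES2, against 22.5, 16.2 and 19.9 FPKM in primed RUES2. In H9 it had 14.3, 14.7 and 14.5 FPKM in naive cells, against 29.4, 20.4 and 44.1 FPKM in primed cells. All 3 naive RUES2 libraries were above every other library, and all 3 naive H9 libraries were below every other library. The group means thus ran from naive RUES2 (265 ± 141 FPKM, SD, n = 3) through primed H9 (31.3 ± 11.96 FPKM) and primed RUES2 (19.5 ± 3.12 FPKM) to naive H9 (14.5 ± 0.243 FPKM). Primed H9 and primed RUES2 overlapped, and their difference did not pass the test (log2 difference RUES2 minus H9 of -0.60, SE 0.334, adjusted p = 0.474 in limma's test).

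The mean FPKM of MYC in naive RUES2 was 13.6 times that in primed RUES2. The log2 difference was 3.58 (SE 0.334, adjusted p = 2.25e-05 in limma's test). Here and throughout, a log2 difference is one of mean log2(FPKM + 1), which is not the log2 of the ratio of mean FPKM. In H9 the naive mean was 0.464 of the primed mean, and the log2 difference was -0.99 (SE 0.334, adjusted p = 0.0343 in limma's test). The difference between these state effects was 4.57 (SE 0.473, adjusted p = 0.00108 in limma's test). Between the lines in the naive state, the MYC mean in RUES2 was 18.3 times that in H9 (log2 difference 3.98, adjusted p = 9.46e-05 in limma's test). Those 3 calls in libraries labelled RUES2 held under every alternative run, including each library left out in turn. The fall in H9 did not. It missed the threshold when naive H9 replicate 1 (adjusted p = 0.0809), 2 (adjusted p = 0.0746) or 3 (adjusted p = 0.0771) was left out. It also missed without primed H9 replicate 1 (adjusted p = 0.0691) or 3 (adjusted p = 0.124), and with the replicate number as a block (adjusted p = 0.0591). Libraries labelled RUES2 enter the spread of this test. In limma's fit of the H9 groups alone the adjusted p was 0.0233, and without naive RUES2 replicate 2 it was 0.00732.

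The 3 naive RUES2 libraries were not alike in MYC. Replicate 2 held 427 FPKM, and the other two held 199 and 169 FPKM. Without replicate 2 the log2 difference between naive and primed RUES2 was 3.18, still called. The summed level of 19 fibroblast markers in naive RUES2 was 448, 305 and 1355 FPKM in replicates 1, 2 and 3, so in that group the library with the highest MYC had the lowest fibroblast sum. In primed H9 the order was the opposite: replicate 3 had the highest MYC (44.1 FPKM) and the highest fibroblast sum (702 FPKM), and replicate 2 had the lowest MYC (20.4 FPKM) and the lowest sum (260 FPKM). In primed RUES2 replicate 2 was the lowest in both. In naive H9 that sum was 478 to 701 FPKM, against 260 to 702 FPKM in primed H9, and it was 293 to 541 FPKM in primed RUES2. Some single markers moved more than the sum, and not all the same way. COL3A1 had 85.5 to 445 FPKM in naive RUES2, against 0.310 to 2.40 FPKM in primed RUES2, and 117 to 225 FPKM in naive H9, against 0.694 to 5.62 FPKM in primed H9. THY1, also one of the primed markers, had 6.91 to 16.6 FPKM in naive RUES2, against 51.1 to 107 FPKM in primed RUES2. In H9 it had 18.3 to 23.0 FPKM in naive cells, against 81.4 to 131 FPKM in primed cells. TAGLN had 207 to 350 FPKM in primed RUES2 and 81.0 to 474 FPKM in primed H9. With THY1 it made up most of the sum in primed libraries. DPT stayed below 1 FPKM in naive RUES2, and FAP, PRRX1 and MGP stayed below it in naive H9. What part fibroblast-like, mesendoderm-like or neural-like cells have in the levels of MYC was not tested.

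The genes on either side of MYC did not show its pattern. Within 2500000 bases on either side, 5 other tested genes were listed: TRIB1, FAM84B, POU5F1B, PVT1 and FAM49B. PVT1, a long noncoding RNA gene next to MYC, had 4.23 to 5.60 FPKM in naive RUES2, against 3.63 to 5.59 FPKM in primed RUES2, and 3.11 to 3.71 FPKM in naive H9, against 4.51 to 7.14 FPKM in primed H9. TRIB1, a pseudokinase gene, had 5.67 to 7.45 FPKM in naive RUES2, against 12.96 to 16.2 FPKM in primed RUES2, and 6.09 to 6.25 FPKM in naive H9, against 9.71 to 13.1 FPKM in primed H9. None of the 5 had a mean in naive RUES2 above all other groups. POU5F1B is a near copy of POU5F1, and its value of 74.8 to 93.9 FPKM in naive RUES2 and up to 159 FPKM in primed H9 is uncertain because reads can be split between the copies.

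**Figure D2:**
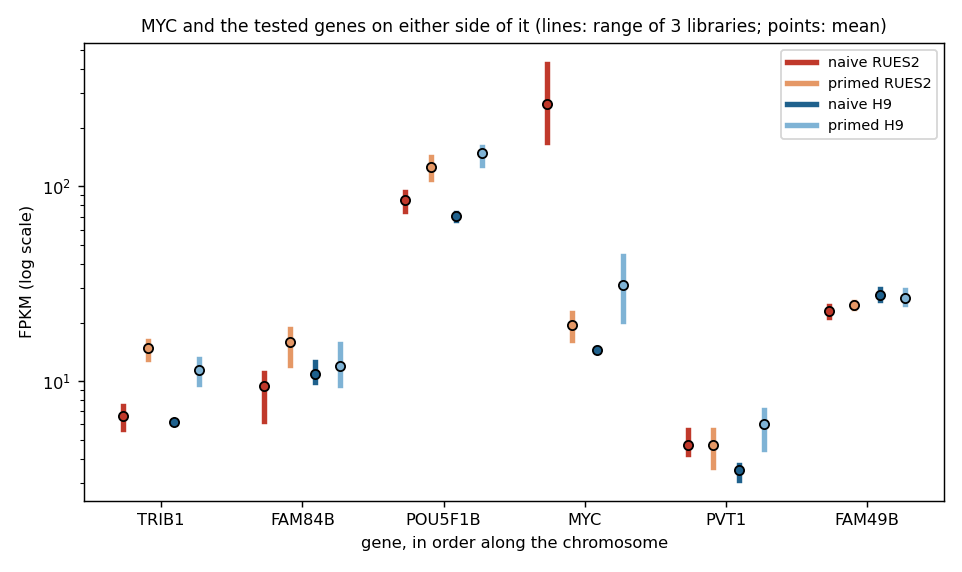
FPKM, on a log axis, of MYC and the 5 tested genes around it, in their order along the chromosome. Lines span the lowest to the highest of 3 libraries and points are group means. MYC in naive RUES2 is the one range that stands above those of the other 3 groups of the same gene.

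Of the 9831 autosomal genes considered, NANOG had the profile most like that of MYC over the 12 libraries (Pearson's r = 0.985 on log2(FPKM + 1)), followed by PLA2G4A (r = 0.984) and LPPR4 (r = 0.980). These r values are descriptions over libraries that fall into separate groups, and the 3 naive RUES2 libraries set much of them. NANOG, a core pluripotency transcription factor, had 193 to 459 FPKM in naive RUES2, 33.2 to 63.4 FPKM in primed RUES2, 41.2 to 47.4 FPKM in naive H9 and 51.2 to 100.4 FPKM in primed H9. Its reads can be shared with near-identical retrocopies, so its level is uncertain. PLA2G4A, a cytosolic phospholipase, had 7.01 to 16.0 FPKM in naive RUES2 and at most 1.06 FPKM in every other library. LPPR4, a lipid phosphatase-related membrane protein gene, had 13.9 to 33.3 FPKM in naive RUES2 and at most 0.686 FPKM in every other library.

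MYCN (hg19 chr2:16080683-16087129), the family member known from neural and embryonic tissue, ran the other way in the libraries labelled RUES2. It had 16.1, 12.3 and 18.7 FPKM in naive RUES2, against 38.9, 32.3 and 29.3 FPKM in primed RUES2. H9 libraries held 21.4, 20.1 and 21.1 FPKM in naive cells, against 22.3, 33.0 and 21.2 FPKM in primed cells. The naive and primed RUES2 libraries did not overlap, and the H9 groups did. MYCN fell to a mean of 15.7 ± 3.26 FPKM in naive RUES2, against 33.5 ± 4.91 FPKM in primed RUES2 (SD, n = 3 each), a log2 difference of -1.06 (SE 0.182, adjusted p = 0.00100 in limma's test), and this call held under every alternative. In H9 the log2 difference was -0.25 (SE 0.182, adjusted p = 0.285), and the difference between the state effects did not pass the test (-0.80, SE 0.258, adjusted p = 0.102), although it did without primed H9 replicate 2 (adjusted p = 0.0298). The order of the means was primed RUES2, primed H9, naive H9 and naive RUES2, where each group overlapped the next except naive H9 and naive RUES2, whose difference did not pass the test either (RUES2 minus H9 -0.41, adjusted p = 0.162).

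Part of the MYCN span is shared with MYCNOS, its antisense gene, over 1163 bases. The kit is not stated to keep strand, so fragments of the pair cannot be told apart there. MYCNOS stood at 0.793 to 1.24 FPKM in naive RUES2, against 1.78 to 2.57 FPKM in primed RUES2, a log2 difference of -0.60 (adjusted p = 0.00903 in limma's test).

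The MYCN promoter is shown because MYCN is the family member that fell in naive RUES2. The window runs from 250 bases before to 50 bases after the RefSeq start, at GRCh38.p14 chr2:15940300-15940599 on the plus strand. It was searched on both strands for the E-box CACGTG, which MYC-MAX and MXD-MAX dimers bind, and for TTTGGCGC, a form of the site bound by E2F cell-cycle factors. The capitals mark TTTGGCGC, which starts 176 bases before the start. No CACGTG stood in this window.
MYCN: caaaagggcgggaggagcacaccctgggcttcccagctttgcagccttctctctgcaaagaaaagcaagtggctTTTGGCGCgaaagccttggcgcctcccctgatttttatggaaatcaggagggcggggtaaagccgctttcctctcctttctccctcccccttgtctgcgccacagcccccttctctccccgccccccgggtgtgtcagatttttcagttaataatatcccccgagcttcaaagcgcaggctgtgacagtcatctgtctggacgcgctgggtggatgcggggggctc
Among all 35116 promoter windows of the same length, 229 held TTTGGCGC on either strand, or 0.652%, and 2548 held CACGTG, or 7.26%. The match describes the letters only.

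The 3 genes most like MYCN over the 12 libraries were ITGA6 (r = 0.965), ORMDL3 (r = 0.965) and LOC146880 (r = 0.944). ITGA6, an integrin subunit of stem cell adhesion to laminin, had 19.4 to 25.7 FPKM in naive RUES2, against 36.9 to 46.0 FPKM in primed RUES2, and 26.0 to 28.3 FPKM in naive H9, against 29.4 to 39.2 FPKM in primed H9.

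MYCL1 (hg19 chr1:40361096-40367687), the third paralogue, stayed in a narrow range. It had 8.69, 6.40 and 9.84 FPKM in naive RUES2, against 9.82, 10.97 and 7.80 FPKM in primed RUES2. In H9 the levels were 9.87, 9.43 and 10.0 FPKM in naive cells, against 11.3, 7.55 and 9.79 FPKM in primed cells. All 4 groups overlapped. The state difference was -0.18 in RUES2 (SE 0.171, adjusted p = 0.403) and 0.05 in H9 (SE 0.171, adjusted p = 0.853) in limma's test. The profiles most like it were those of RAD17 (r = 0.872), IFI27L1 (r = 0.813) and TRAPPC6B (r = 0.810), lower likeness than the best matches of MYC and MYCN.

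Since FPKM is scaled per length, the levels of the 3 paralogues can be added. MYC, MYCN and MYCL1 together had 224, 446 and 198 FPKM in naive RUES2, against 71.2, 59.5 and 57.1 FPKM in primed RUES2. In H9 the sum ran from 44.2 to 45.6 FPKM in naive cells, against 60.9 to 75.1 FPKM in primed cells. MYC made up 85.5 to 95.8% of the sum in naive RUES2, against 27.3 to 34.9% in primed RUES2, and 31.3 to 33.3% in naive H9, against 33.4 to 58.7% in primed H9. MYC was above MYCN in all naive RUES2 libraries, where the ratio of MYC to MYCN was 9.02 to 34.9. The ratio was 0.503 to 0.680 in primed RUES2. In naive H9 it was 0.665 to 0.734, against 0.617 to 2.08 in primed H9. In 3 of the 4 groups the library with the highest MYC was also the one with the lowest MYCN, primed RUES2 being the exception. In naive H9 the authors' confidence bounds of MYC overlapped between all libraries. In primed H9 those of MYCN overlapped between replicates 1 and 3. The order is unsettled in these groups, and a relation of MYC to MYCN was not tested.

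**Figure D3:**
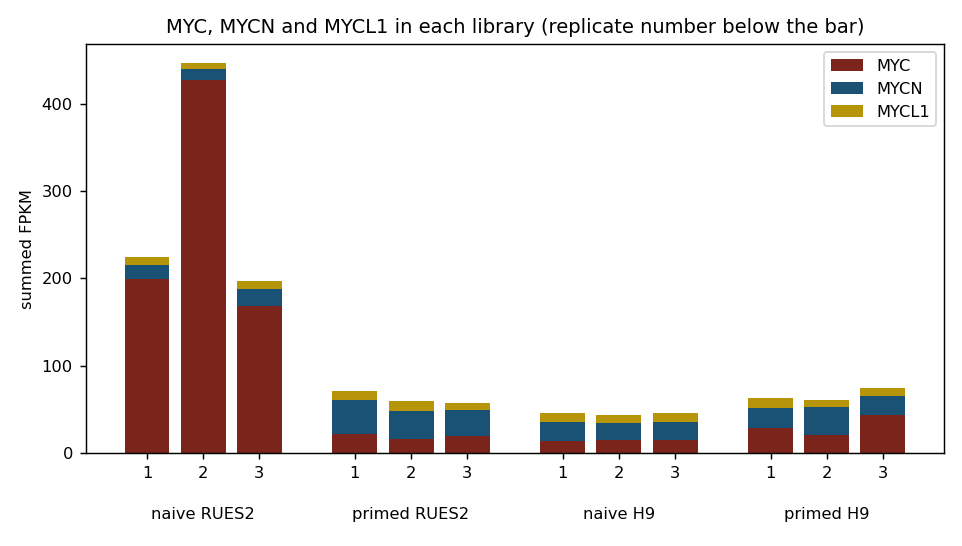
Summed FPKM of MYC, MYCN and MYCL1 in each of the 12 libraries, stacked on a linear axis that starts at 0, with replicate numbers under the bars. MYC takes 85.5 to 95.8% of the bar in the naive libraries labelled RUES2.

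MAX (hg19 chr14:65472819-65569413), the obligate dimer partner of the whole network, had 23.5, 27.8 and 19.1 FPKM in naive RUES2, against 13.9, 13.4 and 12.9 FPKM in primed RUES2. H9 libraries had 13.6, 13.1 and 15.6 FPKM in naive cells, against 10.8, 12.7 and 14.1 FPKM in primed cells. The naive RUES2 libraries were above all 9 others, and the other 3 groups overlapped. MAX rose in naive RUES2 (log2 difference 0.75, SE 0.133, adjusted p = 0.00118 in limma's test) and was higher in naive RUES2 than in naive H9 (0.69, adjusted p = 0.00716), calls that held under every alternative. In H9 the state difference was 0.16 (SE 0.133, adjusted p = 0.358). The difference between the state effects was 0.59 (SE 0.189, adjusted p = 0.101) and passed the threshold only without naive RUES2 replicate 3 (adjusted p = 0.0380). The sum of the 3 MYC paralogues was 9.55 to 16.1 times the level of MAX in naive RUES2, against 4.43 to 5.12 times in primed RUES2, and 2.92 to 3.38 times in naive H9, against 4.79 to 5.84 times in primed H9. The MAX span overlaps that of CHURC1-FNTB, which also rose in naive RUES2 (0.51, adjusted p = 0.0135 in limma's test). It also overlaps those of FNTB (0.40, adjusted p = 0.279) and LOC100506321 (0.55, adjusted p = 0.0501), neither called. Whole spans were compared, so how many fragments of these genes could be counted for MAX is not known.

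The MAX-binding repressors were led by MXD3, a member known from proliferating cells. MXD3 (hg19 chr5:176732501-176739292) had 31.1, 33.6 and 33.4 FPKM in naive RUES2, against 26.2, 25.4 and 30.3 FPKM in primed RUES2. In H9 it had 31.1, 29.5 and 29.6 FPKM in naive cells, against 26.7, 29.1 and 23.9 FPKM in primed cells. In both lines the naive libraries were above the primed ones without overlap. MXD3 rose in naive RUES2 by a log2 difference of 0.26 (SE 0.0866, adjusted p = 0.0331 in limma's test), while the 0.17 in H9 did not pass (SE 0.0866, adjusted p = 0.126). The RUES2 call was lost without naive replicate 2 (adjusted p = 0.0875) or 3 (adjusted p = 0.0872), without primed replicate 1 (adjusted p = 0.102) or 2 (adjusted p = 0.106), in a fit of the RUES2 groups alone (adjusted p = 0.0559) and with the replicate block (adjusted p = 0.0566). The H9 value was called without primed H9 replicate 2 (adjusted p = 0.0492). Over 1460 bases the MXD3 span is shared with PRELID1, at 121 to 129 FPKM in naive RUES2, against 89.4 to 112 FPKM in primed RUES2 (log2 difference 0.29, adjusted p = 0.0141), so fragments of this abundant neighbour could be counted for MXD3.

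MXD4 (hg19 chr4:2249160-2263739), a repressor linked to differentiation, had 7.00, 7.64 and 8.59 FPKM in naive RUES2, against 6.41, 7.20 and 6.21 FPKM in primed RUES2. In H9 it had 8.05, 7.56 and 7.50 FPKM in naive cells, against 10.6, 10.8 and 7.72 FPKM in primed cells. Primed H9 replicate 3 stood with the naive libraries and the other two stood above them. The state difference was 0.20 in RUES2 (SE 0.121, adjusted p = 0.202) and -0.29 in H9 (SE 0.121, adjusted p = 0.0780) in limma's test. Without primed H9 replicate 3 the H9 difference was -0.43 (adjusted p = 0.00633), the difference between the state effects was also called (adjusted p = 0.0252), and so was the lower level in primed RUES2 than in primed H9 (adjusted p = 0.0136).

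MXI1 (hg19 chr10:111967363-112047123) had 6.12, 7.83 and 5.56 FPKM in naive RUES2, against 5.72, 6.80 and 3.84 FPKM in primed RUES2. H9 libraries had 3.06, 3.04 and 3.46 FPKM in naive cells, against 2.99, 3.15 and 5.51 FPKM in primed cells. The mean of MXI1 in the naive libraries labelled RUES2 was 2.04 times that in naive H9 (log2 difference 0.83, SE 0.216, adjusted p = 0.0272 in limma's test), with no overlap. The naive and primed libraries overlapped in both lines. That call between lines was lost when naive H9 replicate 1 (adjusted p = 0.0867), 2 (adjusted p = 0.0839) or 3 (adjusted p = 0.0590) was left out and without naive RUES2 replicate 1 (adjusted p = 0.0661) or 2 (adjusted p = 0.111). The state difference of MXI1 was 0.23 in RUES2 (adjusted p = 0.400) and -0.19 in H9 (adjusted p = 0.516).

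MNT (hg19 chr17:2287354-2304258), a broadly expressed MYC antagonist, had 4.36, 5.35 and 5.13 FPKM in naive RUES2, against 4.16, 4.47 and 3.72 FPKM in primed RUES2. In H9 the levels were 3.82, 3.80 and 2.65 FPKM in naive cells, against 4.01, 3.82 and 3.92 FPKM in primed cells. The RUES2 states overlapped, and no naive H9 library was above a primed one. MNT too was higher in naive RUES2 than in naive H9 (log2 difference 0.43, SE 0.120, adjusted p = 0.0341 in limma's test). The adjusted p of this line difference ran from 0.0316 to 0.124 over the alternatives, and the call was lost without naive H9 replicate 1 (adjusted p = 0.0507) or 3 (adjusted p = 0.102), naive RUES2 replicate 2 (adjusted p = 0.124) or 3 (adjusted p = 0.0849), or primed RUES2 replicate 1 (adjusted p = 0.0509), and in a fit of the naive groups alone (adjusted p = 0.0625). The state difference was 0.22 in RUES2 (adjusted p = 0.165) and -0.17 in H9 (adjusted p = 0.286).

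MXD1 (hg19 chr2:70142173-70170076), a repressor induced in differentiating blood and skin cells, was the lowest member. It had 0.547, 0.442 and 0.606 FPKM in naive RUES2, against 0.716, 1.17 and 0.700 FPKM in primed RUES2, and 0.391 to 0.529 FPKM in naive H9, against 0.469 to 0.618 FPKM in primed H9. The RUES2 states did not overlap and the H9 states did. Those levels rest on an implied 32 to 138 fragments per library, where MYC had 584 to 18024. In a fit with no filter on low values, the state difference in RUES2 was -0.27 (adjusted p = 0.0457 in limma's test) and that in H9 was -0.06 (adjusted p = 0.658).

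The summed level of the 5 repressors moved less than that of the MYC paralogues. It was 49.2 to 54.8 FPKM in naive RUES2, against 43.2 to 45.1 FPKM in primed RUES2, and 43.7 to 46.5 FPKM in naive H9, against 41.7 to 47.4 FPKM in primed H9. The MYC paralogue sum divided by the repressor sum was 3.70 to 8.14 in naive RUES2, against 1.27 to 1.65 in primed RUES2, and 0.981 to 1.04 in naive H9, against 1.28 to 1.80 in primed H9.

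**Figure D4:**
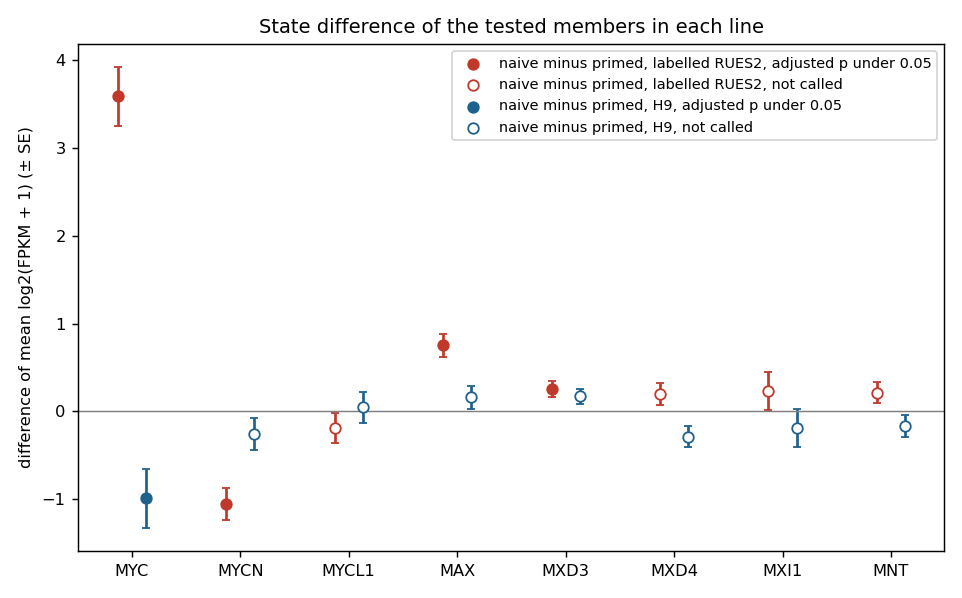
Difference of mean log2(FPKM + 1), naive minus primed, with its SE for the 8 tested members in the libraries labelled RUES2 and in H9 (3 libraries a group). Filled points passed an adjusted p of 0.05 and open points did not, and MYC stands at 3.58 in RUES2 and at -0.99 in H9.

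Promoter windows of 8 members were in the RefSeq table, 11 windows in all, and the E-box CACGTG stood in 2 of the 11, those of MXD4 and MNT, where 7.26% of all windows hold it. No window of MYC was among them, so the MYC promoter was not searched. The windows of MXD4 and MNT are shown because CACGTG is the site to which MYC-MAX dimers bind, and the capitals mark it. It starts 238 bases before the start of MXD4 (GRCh38.p14 chr4:2262060-2262359, minus strand) and 193 bases before that of MNT (GRCh38.p14 chr17:2401011-2401310, minus strand).
MXD4: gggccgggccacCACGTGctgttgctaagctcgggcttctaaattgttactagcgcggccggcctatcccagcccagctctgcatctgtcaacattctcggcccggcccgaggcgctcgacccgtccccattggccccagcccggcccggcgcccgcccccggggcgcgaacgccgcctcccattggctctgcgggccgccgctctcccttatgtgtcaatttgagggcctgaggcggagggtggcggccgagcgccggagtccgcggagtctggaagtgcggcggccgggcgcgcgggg
MNT: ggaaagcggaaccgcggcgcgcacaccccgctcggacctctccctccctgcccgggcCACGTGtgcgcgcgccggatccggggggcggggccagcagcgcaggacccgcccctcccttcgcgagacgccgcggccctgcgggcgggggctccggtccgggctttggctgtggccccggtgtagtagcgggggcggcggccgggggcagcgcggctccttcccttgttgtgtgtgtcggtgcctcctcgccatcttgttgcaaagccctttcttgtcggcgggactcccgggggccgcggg
The state difference of MXD4 in RUES2 was 0.20 and that of MNT was 0.22, neither called, in the same libraries in which MYC rose by 3.58 on the log2 scale. Whether MYC binds or acts on either gene was not tested.

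Genes around the network were read from 7 lists of known roles. Their counts of calls stand beside the 23.1% of all tested genes that rose and the 23.6% that fell in naive RUES2, and the 20.4% that rose and 23.9% that fell in naive H9. Among 4 other genes of the MAX and MLX network, MLXIPL, the glucose-sensing ChREBP, was called lower in the naive state of both lines. Its mean was 0.0555 ± 0.0479 FPKM in naive RUES2, against 1.13 ± 0.239 FPKM in primed RUES2, and 0.178 ± 0.0802 FPKM in naive H9, against 1.28 ± 0.422 FPKM in primed H9 (SD, n = 3 each). MLXIPL passed the filter of 1 FPKM through primed libraries alone, with at most 0.109 FPKM in naive RUES2 and 0.264 FPKM in naive H9. The filter thus favoured a fall, and these low levels are a description only. MLX, the MAX-like partner of ChREBP, rose in naive RUES2 (log2 difference 0.68, adjusted p = 0.00340 in limma's test), as did MLXIP (0.46, adjusted p = 0.0119), and neither passed in H9 (adjusted p = 0.0631 and 0.736). Of 12 MYC cofactors, 2 rose and 1 fell in RUES2, and 1 rose and 1 fell in H9, each share below that over all tested genes. BPTF, a chromatin remodeller subunit that MYC recruits, fell in both, to 14.7 ± 0.398 FPKM in naive RUES2, against 26.6 ± 3.37 FPKM in primed RUES2, and to 17.3 ± 0.659 FPKM in naive H9, against 26.3 ± 2.09 FPKM in primed H9.

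Of the 10 corepressor genes that MXD and MNT proteins use, none rose and 4 fell in naive RUES2 (SIN3A, SIN3B, RBBP7 and ING1), while 2 rose (HDAC1 and RBBP4) and 2 fell (SIN3B and RBBP7) in naive H9, where the shares were close to those over all tested genes. SIN3B, a scaffold of the complex, had a mean of 9.57 ± 0.265 FPKM in naive RUES2, against 14.0 ± 0.531 FPKM in primed RUES2, and 11.2 ± 1.51 FPKM in naive H9, against 14.8 ± 0.951 FPKM in primed H9. The median log2 difference of the 10 was -0.15 in RUES2 and -0.13 in H9, beside 0.01 and -0.01 over all tested genes. Of 18 genes that act on the stability of MYC protein, 17 were tested, 3 rose and 2 fell in RUES2, and 4 rose and 1 fell in H9. The shares that rose, 17.6% in RUES2 and 23.5% in H9, were near those over all tested genes. The shares that fell, 11.8% in RUES2 and 5.88% in H9, were below the 23.6% and 23.9% of all tested genes.

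Of 48 genes known to be activated by MYC, all tested, 22 rose and 3 fell in naive RUES2, and 11 rose and 6 fell in naive H9. The share that rose was 45.8% in RUES2, against 23.1% of all tested genes, and 22.9% in H9, near the 20.4% of all tested genes. The median log2 difference was 0.33 in RUES2 and 0.19 in H9, beside 0.01 and -0.01 over all tested genes. The log2 difference was above 0 for 39 of the 48 in RUES2 and for 33 in H9, where 51.1% and 49.0% of all tested genes were above 0. In both lines 9 genes rose and 3 fell. ODC1, the rate-limiting enzyme of polyamine synthesis, had 400 ± 47.8 FPKM in naive RUES2, against 127 ± 2.59 FPKM in primed RUES2, and 357 ± 25.4 FPKM in naive H9, against 103 ± 35.6 FPKM in primed H9. ODC1 rose in RUES2 (log2 difference 1.65, adjusted p = 0.000219 in limma's test) and in H9 (1.85, adjusted p = 0.000117). What part MYC has in the levels of ODC1 or the other targets was not tested. The ribosome assembly genes MRTO4 and PES1 also rose in both lines, MRTO4 by 0.71 in RUES2 and in H9, and PES1 by 0.54 in RUES2 and 0.51 in H9 on the log2 scale. BCAT1, a branched-chain amino acid transaminase, fell in both lines, with log2 differences of -1.09 in RUES2 and -1.002 in H9. These counts turn on single libraries: 12 rose in RUES2 without naive RUES2 replicate 2 or primed RUES2 replicate 1, and 14 without primed RUES2 replicate 2, while in H9 5 to 7 rose when any naive library or primed replicate 1 or 3 was left out, and 19 rose without primed H9 replicate 2. In RUES2 5 fell without naive replicate 2. The share of all tested genes called in those fits was not counted.

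For none of the 48 activated genes did the state effect differ between the lines past the threshold, at a median difference of 0.13, and at an unadjusted p under 0.05 limma's test counted 8 higher and 0 lower. For all tested genes no count was made at that unadjusted threshold. In the naive state 4 of the 48 were higher in libraries labelled RUES2 than in H9 (WDR74, IMPDH2, SHMT2 and TFB2M) and none was lower, with a median of 0.17. The share of 4 in 48 stands beside the 11.2% of all tested genes that were higher. Without 1 naive H9 library 1 of the 48 was called higher, without naive RUES2 replicate 1 or 2 it was 2, and without primed H9 replicate 3 it was 7.

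**Figure D5:**
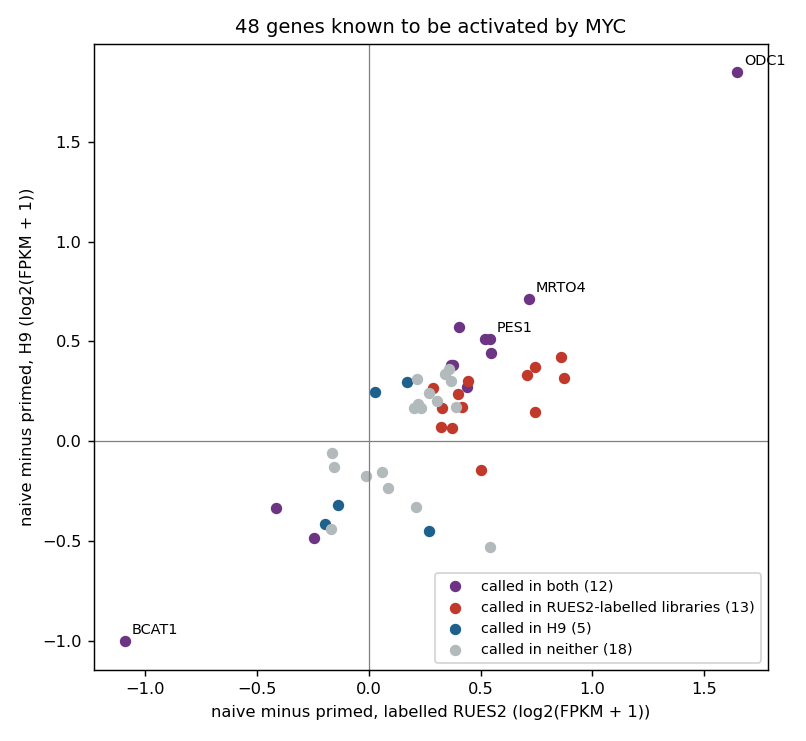
Log2 difference, naive minus primed, of 48 genes known to be activated by MYC, in the libraries labelled RUES2 (horizontal) and in H9 (vertical). Points are genes, and the colours give the 12 called in both, the 13 in RUES2 alone, the 5 in H9 alone and the 18 in neither; ODC1 lies at 1.65 and 1.85, and BCAT1 at -1.09 and -1.002.

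Of 12 genes known to be repressed by MYC, 10 were tested. In naive RUES2 2 rose (CDKN1A and GADD45A) and 2 fell (CDKN1B and NDRG2), and in naive H9 2 rose (CDKN1A and GAS1) and none fell. The shares that rose, and the share that fell in RUES2, were close to those over all tested genes. With 1 library left out, between 1 and 4 fell in RUES2 and between 0 and 2 rose in H9. CDKN1A, the cell-cycle inhibitor p21 that MYC represses together with ZBTB17, rose in both lines, to 44.2 ± 11.5 FPKM in naive RUES2, against 8.80 ± 4.45 FPKM in primed RUES2, and to 17.3 ± 6.31 FPKM in naive H9, against 5.64 ± 2.29 FPKM in primed H9 (log2 differences of 2.31 and 1.47, adjusted p = 0.00131 and 0.0157 in limma's test). NDRG2 was the 1 gene of this list whose state effect differed between the lines, falling in RUES2 by 1.24 on the log2 scale, with a value of -0.23 in H9 (adjusted p = 0.260). The 4 targets of the MLX partner proteins showed ARRDC3 higher in naive RUES2 (0.62, adjusted p = 0.0335) and ARRDC4 lower in naive H9 (-1.18, adjusted p = 0.00183), and TXNIP and KLF10 were not called in either line.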

How the data were processed

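The deposited files held 1 FPKM value per gene for each of 12 libraries, 25278 entries each, with the authors' confidence bounds. The submitters' processing notes list TopHat2 2.1.1, bcl2fastq 2.17.1.14 and the build hg19. The unit is FPKM per the file headers, although the design text speaks of RPKM. For the program and annotation behind it, the sources used here give no name. Gene spans in the files start from 0, so 1 was added. For 554 symbols listed at more than 1 locus, that of the highest mean level was taken, and 2 symbols with a failed value were dropped. Whole reads could not be recovered (29.4 to 33.0% of implied fragments under 60 lay within 0.05 of a whole number), so no count test was run. Values were tested as log2(FPKM + 1), a scale that understates the change of low genes, with limma 3.58.1 in R 4.3.3, a mean per group over all 12 libraries and a variance trend, two-sided, over the 14428 genes that reached 1 FPKM in 3 or more libraries. The fit was tested on simulated data. Members and lists were chosen with earlier results of these data known. Named genes are every member, the 3 genes most like each MYC paralogue among autosomal genes (a restriction added later) whose highest group mean reached 5 FPKM, and up to 4 genes per list called the same way in both lines, of which 1 is not reported here. Genes named for a call in 1 line, the MYC neighbours and the genes overlapping members were chosen after their values were seen. Promoter sequences are RefSeq's, build GRCh38.p14, and the other coordinates are hg19 as deposited. Replicates are called biological in the design text, and nothing says more of their source. Alternatives changed the pseudocount, filter, scaling, variance trend, samples fitted and replicate block, and left out each library in turn.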

Additional observations from a re-analysis of the deposited data

Results flagged for a closer look

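The naive minus primed difference of MYC differed between the line labels. On the log2 scale, the value in libraries labelled RUES2 exceeded that in H9 by 4.57 (SE 0.473, adjusted p = 0.00108 in limma's test across all 14428 tested genes). MYC was higher in 3 of 3 naive RUES2 libraries than in any primed RUES2 library, and lower in 3 of 3 naive H9 libraries than in any primed H9 library. Leaving out each library in turn gave 4.17 to 4.84, called each time. In a check of line identity over the 12 libraries, those labelled RUES2 split evenly, with 3 unlike the others of that label. Those labelled H9 all matched. What part this split has in the difference was not tested. Groups of 3 libraries are too small for a check of single outlying libraries.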

How the results depend on the processing

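Over 8 members in 5 comparisons, 803 values were recomputed, of which 758 kept direction and side of the threshold, 24 lost a call, 7 gained one and 14 changed sign, all of the last among values that were not called. With rescaled libraries the sign turned for MYCL1 in H9 (-0.0027), for MXD4 between lines in the naive state (-0.0061) and for MYCL1 between lines in the primed state (-0.0121). Leaving out 1 library gave -0.10 to 0.17 for MYCL1 and -0.31 to 0.041 for MXI1 between states in H9, -0.066 to 0.065 for MXD4 in the naive line comparison, and -0.14 to 0.12 for MYCL1, -0.0035 to 0.18 for MAX and -0.038 to 0.10 for MXD3 in the primed line comparison. The cause was not tested.

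Members lower in H9 numbered 2 with rescaled libraries, since MXD4 was then also called (adjusted p = 0.0281), and 0 with the replicate block. In the replicate block fit 1 repressed target fell in RUES2 and 2 were higher in RUES2 than H9 in the naive state. Same-numbered libraries of different groups showed little shared deviation (r of -0.0537 to 0.136, over 0.1 in 2 of 18 pairs). Among pairs of unlike number 2 of 36 were over 0.1. No pairing by number was seen, although low r cannot show that none exists. Fits of only the compared groups, which have fewer samples, gave 7 activated targets higher in H9, 1 repressed target lower in RUES2, and 2 higher and 1 lower between lines in the naive state. With rescaled libraries 5 activated targets fell in RUES2 and 1 repressed target fell in H9. With a filter of 5 FPKM, which tests fewer genes, 1 repressed target rose in H9. MNT in the naive line comparison was not called with no filter (adjusted p = 0.0508). Rescaling moved the medians of the comparisons by -0.0435 to 0.0031.

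Leaving out 1 library gave 0 to 1 members higher and 0 to 1 lower in H9, 1 to 2 higher and 0 to 1 lower for the difference, 2 to 4 higher between lines in the naive state and 0 to 1 lower in the primed state. Activated targets higher numbered 5 to 19 in H9, 12 to 26 in RUES2 and 1 to 7 between lines in the naive state, and 2 to 5 were lower in RUES2. Repressed targets were 0 to 2 higher and 0 to 1 lower in H9, 1 to 4 lower in RUES2, and 0 to 2 higher and 0 to 1 lower between lines in the naive state. No share of all tested genes was counted for these fits. Leaving out the whole naive RUES2 group, added after seeing the data, changed no call of a member in H9 or between the primed groups. Depth limits MXD1 most.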
